A study of Mus musculus with 56 samples.

Results

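The astrocyte marker genes described here are 36 mouse genes that are known to be expressed in astrocytes well above neurons, chosen by symbol. A gene's level is the log2 intensity of its brightest probe set among those that name that gene alone. All 36 genes were measured on the 3′ arrays and on the later gene-level arrays, and 35 on the earlier gene-level arrays, where the probe sets of Slc7a10 also name other genes. A gene was tested where its mean log2 intensity lay above the 40th percentile of all genes. That limit kept 33 markers on the 3′ arrays, 32 on the earlier and 32 on the later gene-level arrays, among 10916, 11292 and 13308 genes kept. S100b and Gjb6 lay under it on every array type, Slc7a10 on both types where it was read, and Cldn10 on both gene-level types, so no change is given for them there.

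RNA came from cortical neuron cultures of C57BL6 mouse embryos of day 13 to 15, kept 7 days in vitro before treatment, and was read on 56 Affymetrix arrays. Per the labels drugs stayed on for 24 or 72 h, and a single array's time is known only where its title holds it. The 3′ arrays held topotecan at 300 nM (3 arrays) with vehicle (3), and ICRF-193 at 3 µM (3) with its own vehicle (3). The earlier gene-level arrays held a topotecan series at 3, 30, 150, 300, 500 and 1000 nM, with 1 array a dose and 2 at 300 nM, beside 3 vehicle arrays. The later ones held topotecan at 1 µM (6) with vehicle (6), and lentiviral shRNA against Top1 (3), against Top2b (3) and scrambled as control (3). They also held irinotecan at 10 µM (3), topotecan for 24 h (1) and topotecan for 24 h then washout (1), which share 2 vehicle arrays. The remaining arrays were 1 with 100 µM DRB beside 1 vehicle, and 1 each with 100 µM hydrogen peroxide and 10 µM paraquat, which share 2 vehicles. Some array descriptions name another treatment than the title, and groups follow the titles. The labels do not say that arrays of a group came from separate cultures, so p-values measure only the spread between these arrays, which may be technical.

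Astrocytes clear glutamate and potassium from the space around synapses, move water and bicarbonate through their membranes, and are coupled to each other by gap junctions. They turn glutamate into glutamine, store glycogen, and secrete lipid carriers and matrix proteins. In cortical cultures they arise from progenitors that make neurons early and glia later, and Notch, JAK-STAT and NFI factors take part in that switch. Topotecan and irinotecan are camptothecin derivatives that trap topoisomerase I on DNA, ICRF-193 inhibits topoisomerase II, and DRB inhibits transcription elongation by RNA polymerase II.

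Neuron markers and astrocyte markers were present together: 22 of 23 neuron markers lay above the dim limit on the 3′ arrays and 22 on the later gene-level arrays. Of the fibroblast, meningeal and mural markers 18 and 16 did. Arrays fell into sets by mean intensity. Among the 3′ arrays the mean was 571 to 577 in the ICRF-193 experiment and 682 to 698 in the topotecan experiment. On the later arrays replicate 1 of each shRNA group lay with the 1 µM topotecan arrays and replicates 2 and 3 with the irinotecan arrays. Each drug was set against vehicles of its own set, and the shRNA fits carry a term for the set. The dose trend is the exception: it ran over all 10 dose arrays, which fall into 2 sets, with no term for the set.

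With 1 µM topotecan most astrocyte markers were lower than with vehicle. Of 32 tested, 25 were lower and 2 higher at an adjusted p of 0.05 (limma, Benjamini-Hochberg over all genes), where 20.8% of all genes were lower and 18.3% higher. The median log2 difference was -0.92 over the markers and -0.01 over all genes. In 23 markers every treated array lay below every vehicle array, as 11.1% of all genes did, and in 0 above, as 7.99% of all genes did. In bulk RNA, fewer astrocytes and less RNA of these genes per astrocyte cannot be told apart.

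Gfap, the intermediate filament protein of astrocytes, had a lowest, median and highest log2 intensity of 5.22, 5.56 and 5.76 on the 6 topotecan arrays, against 8.01, 8.30 and 8.39 on the 6 vehicle arrays. The groups lay far apart, with a log2 difference of -2.72 (SE 0.09, adjusted p = 1.4e-10) by limma, a level 6.59-fold lower. Of the other identity genes, Id3, an inhibitor of basic helix-loop-helix factors, was lower (-0.98), and Fabp7, a lipid-binding protein of radial glia and astrocytes, did not pass (-0.10). Sox9, a transcription factor of the glial lineage, was higher by 0.33 (SE 0.10, adjusted p = 0.0165), with overlapping groups.

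Of the 7 genes for water, ion and membrane transport, 6 were lower. Aqp4, the water channel of astrocyte endfeet, had 5.64, 5.85 and 6.09 with topotecan, against 8.32, 8.66 and 8.80 with vehicle. Its difference of -2.74 (SE 0.10, adjusted p = 3.11e-10) was the largest of the 32 markers. Kcnj10, the inward rectifier that carries potassium into astrocytes, had 6.91, 7.04 and 7.47 with topotecan, against 8.74, 9.09 and 9.28 with vehicle, a difference of -1.95 (SE 0.12). Slc4a4, the sodium bicarbonate cotransporter, had 7.98, 8.22 and 8.49 with topotecan, against 9.59, 9.66 and 9.82 with vehicle, a difference of -1.46 (SE 0.08). None of these 3 overlapped between the groups. Atp1b2, a beta subunit of the sodium pump, and Mlc1 and its binding partner Hepacam, an adhesion molecule, were lower too, and Ttyh1, a membrane protein of the tweety family, did not pass (-0.20).

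All 5 tested genes of glutamate and amino acid handling were lower, with differences of -2.33 to -0.32. Slc38a3, a glutamine transporter, had 7.90, 7.98 and 8.14 with topotecan, against 10.19, 10.34 and 10.53 with vehicle, a level 5.04-fold lower. Slc1a2, the main glutamate transporter of mature astrocytes, had 5.79, 6.07 and 6.33 with topotecan, against 7.08, 7.55 and 7.67 with vehicle, a difference of -1.41 (SE 0.11). Slc1a3, the glutamate transporter of astrocytes and radial glia, had 8.34, 8.56 and 8.62 with topotecan, against 9.52, 9.57 and 9.65 with vehicle, a difference of -1.04 (SE 0.06). All 3 transporters separated completely between the groups. Glul, glutamine synthetase, differed least (-0.32), and Slc25a18, a mitochondrial glutamate carrier, differed by -1.24.

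All 6 metabolic genes were lower, with differences of -1.46 to -0.66. Acsbg1, an acyl-CoA synthetase, had 5.54, 5.82 and 6.09 with topotecan, against 7.18, 7.25 and 7.43 with vehicle. Pla2g7, which breaks down platelet-activating factor, had 7.96, 8.14 and 8.45 with topotecan, against 9.35, 9.46 and 9.58 with vehicle. Aldh1l1, the folate enzyme widely used to label astrocytes, had 6.39, 6.78 and 6.95 with topotecan, against 7.16, 7.41 and 7.63 with vehicle, a difference of -0.66 (SE 0.10, adjusted p = 0.000131). These 3 showed no overlap between the groups. The others were Aldoc, a glycolytic aldolase, Ppp1r3c, which targets a phosphatase to glycogen, and Slco1c1, a carrier of thyroid hormone.

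Of the 4 secreted and matrix proteins, 3 were lower and 1 higher. Bcan, the proteoglycan brevican, had 5.25, 5.71 and 5.84 with topotecan, against 6.94, 7.08 and 7.24 with vehicle, a difference of -1.43 (SE 0.10). Apoe, a lipid carrier, had 6.12, 6.41 and 6.71 with topotecan, against 6.96, 7.05 and 7.21 with vehicle, a difference of -0.66 (SE 0.09). Neither overlapped, whereas Clu, the secreted chaperone clusterin, was higher by 0.36 and did overlap. Sparcl1, a matricellular protein, was lower (-0.46), with overlap. Of the receptors, Fgfr3 (-0.93) and S1pr1 (-0.70), which bind fibroblast growth factors and sphingosine-1-phosphate, were lower, and Ntsr2, a neurotensin receptor, did not pass (-0.01). Gja1, the main connexin of astrocyte gap junctions, had 8.59, 8.76 and 9.01 with topotecan and 8.63, 8.88 and 9.21 with vehicle, overlapped and did not pass (-0.12, SE 0.09, adjusted p = 0.323).

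**Figure D1:**
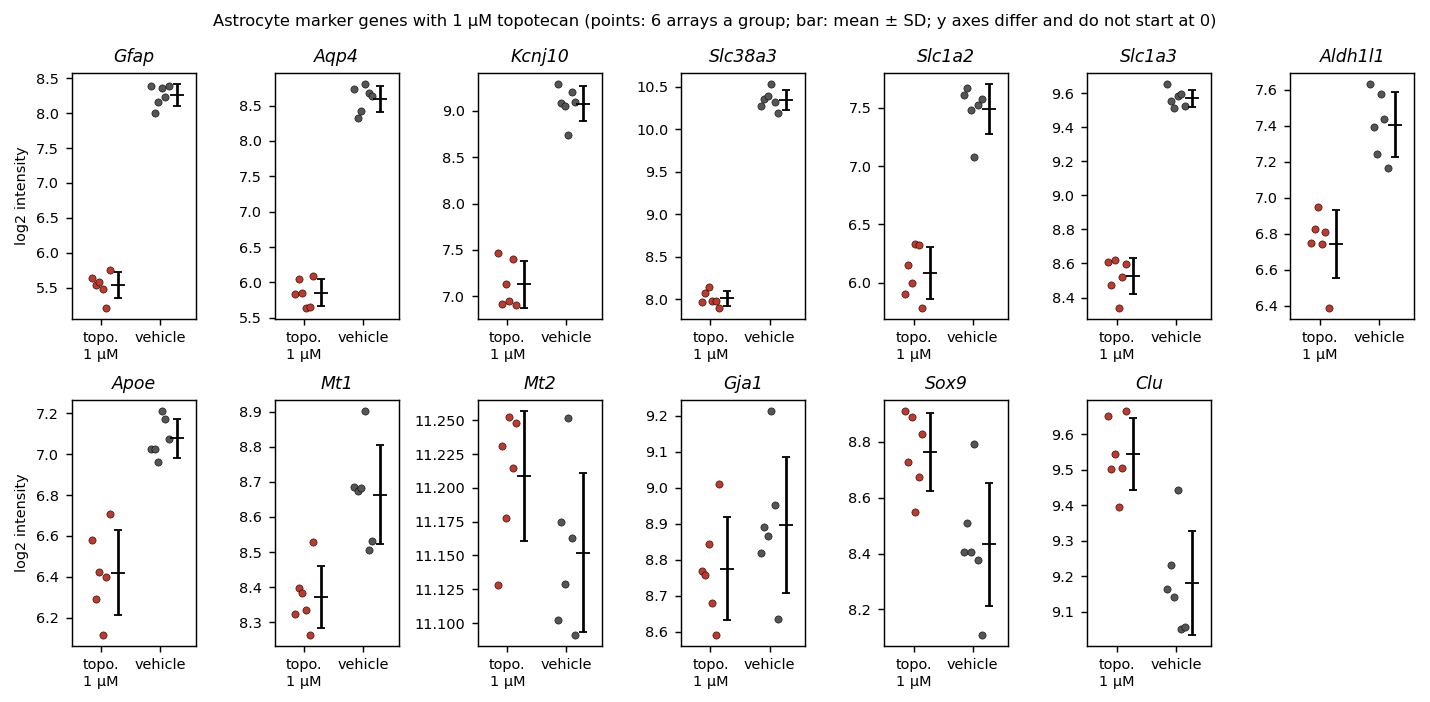
Log2 intensity of 13 astrocyte markers on 6 arrays with 1 µM topotecan (left) and 6 with vehicle (right); points are arrays, and bars are mean ± SD. The highest topotecan array for Gfap is at 5.76 and the lowest vehicle array at 8.01, while the groups overlap in Gja1 and Mt2.

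The metallothioneins, small metal-binding proteins, differed little with 1 µM topotecan. Mt1 had 8.26, 8.36 and 8.53 with topotecan and 8.51, 8.68 and 8.90 with vehicle, with overlap and a difference of -0.29 (SE 0.07, adjusted p = 0.00461). Mt2 had 11.13, 11.22 and 11.25 with topotecan and 11.09, 11.15 and 11.25 with vehicle, with overlap and a difference of 0.06 (SE 0.05, adjusted p = 0.374). Metallothionein promoters are known for the metal response element. It was searched as TGCACNC or TGCGCNC on both strands in the 250 bases before each gene's start (RefSeq, GRCm38.p6) and occurs there in 21.3% of 27025 genes and in 7 of the 29 markers with a promoter entry. The 250 bases before both genes are printed on the genes' own strand, Mt1 at chr8:94178839-94179088 and Mt2 at chr8:94172368-94172617, with the matched letters in capitals, so that the letters can be read beside the values of these neighbouring genes.
Mt1: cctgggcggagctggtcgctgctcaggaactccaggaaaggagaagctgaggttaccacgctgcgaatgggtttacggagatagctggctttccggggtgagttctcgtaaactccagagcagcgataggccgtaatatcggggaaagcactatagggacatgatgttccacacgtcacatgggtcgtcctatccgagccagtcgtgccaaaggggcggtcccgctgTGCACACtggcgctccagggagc
Mt2: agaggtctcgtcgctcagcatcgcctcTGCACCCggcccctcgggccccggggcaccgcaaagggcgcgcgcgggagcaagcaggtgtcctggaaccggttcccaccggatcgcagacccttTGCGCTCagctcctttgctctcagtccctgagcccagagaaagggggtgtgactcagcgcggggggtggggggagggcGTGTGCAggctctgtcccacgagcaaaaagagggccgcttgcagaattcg
The Mt1 stretch holds 1 match and the Mt2 stretch 3.

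The letters TTCNNNGAA, the core of a STAT site, were searched in the same way, since JAK-STAT signalling acts on astrocyte genes. They occur in 7.18% of genes and in 4 of the 29 markers, which are Slc1a3, Acsbg1, Pla2g7 and Ntsr2. The match of each is in capitals among its neighbouring bases, on the gene's own strand (RefSeq, GRCm38.p6): Slc1a3 at chr15:8710860-8710938, Acsbg1 at chr9:54661886-54661946, Pla2g7 at chr17:43568271-43568349 and Ntsr2 at chr12:16653373-16653451. They are shown to set the matched letters beside the values of these genes.
Slc1a3: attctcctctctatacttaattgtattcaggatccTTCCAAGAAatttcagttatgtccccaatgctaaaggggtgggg
Acsbg1: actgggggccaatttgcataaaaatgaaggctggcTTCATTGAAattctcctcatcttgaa
Pla2g7: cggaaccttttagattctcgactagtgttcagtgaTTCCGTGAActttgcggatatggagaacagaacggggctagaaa
Ntsr2: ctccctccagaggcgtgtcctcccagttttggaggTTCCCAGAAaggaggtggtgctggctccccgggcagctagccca
With 1 µM topotecan Slc1a3, Acsbg1 and Pla2g7 were lower and Ntsr2 did not pass, and a match is a description of letters, not a site. TATAAA occurs in 13% of genes and in 2 of the 29 markers, and TGANTCA, an AP-1 core, in 6.87% and in 2.

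Other gene lists moved in the same arrays. Of 26 further astrocyte-enriched genes, 18 were lower and 4 higher, with Ndrg2 at -1.49 and the zinc transporter gene Slc39a12 at -1.40. Of 22 genes of gliogenesis, Notch and JAK-STAT signalling, 10 were lower and 5 higher, with the NFI factor Nfia at -0.91 and the Notch target Hes5 at -0.85. Of 17 genes linked to reactive astrocytes, 4 were lower and 7 higher, with the acute-phase protein Lcn2 at -2.10, the small heat shock protein Hspb1 at 1.25 and the copper-binding ferroxidase Cp at 0.95. Of 22 neuron markers, 12 were lower and 2 higher, with Syt1, a synaptic vesicle protein, at -2.02. Their summed intensity was 17214 to 22861 with topotecan and 21978 to 28873 with vehicle, while the 36 astrocyte markers summed to 16370 to 17214 with topotecan and 23148 to 24868 with vehicle. Fibroblast, meningeal and mural markers summed to 11072 to 15649 with topotecan and 11452 to 15954 with vehicle, with 5 of 16 lower and 3 higher. The part of these cells in the astrocyte values was not tested.

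With topotecan at 300 nM on the 3′ arrays, 10 of 33 markers were lower and 0 higher, where 3.1% of all genes were lower and 1.3% higher. The log2 difference was below 0 in all 33, with a median of -0.77 against 0.06 over all genes. In 23 markers the 3 treated arrays lay below the 3 vehicle arrays, as 11.9% of all genes did, and in 0 above, as 17.7% of all genes did. The called genes were Id3, Aqp4, Slc4a4, Slc1a2, Slc1a3, Slc38a3, Gja1, Cldn10, Bcan and S1pr1.

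Gfap had 7.34, 7.60 and 5.81 with topotecan, against 8.98, 8.65 and 10.14 with vehicle. The groups did not overlap, but the arrays within each group spread widely, and the difference of -2.34 (SE 0.54) had an adjusted p of 0.0611. In a fit over all probe sets the other 2 Gfap probe sets gave -2.00 (adjusted p = 0.0142) and -2.51 (adjusted p = 0.00826), so the call turns on the probe set. Id3 was lower (-1.04), also without overlap.

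Aqp4 had 10.12, 10.70 and 9.18 with topotecan, against 11.81, 11.77 and 12.12 with vehicle, a difference of -1.89 (SE 0.35, adjusted p = 0.0311). Slc4a4 had 8.83, 9.07 and 8.37 with topotecan, against 11.01, 11.28 and 11.68 with vehicle, and its difference of -2.57 (SE 0.23, adjusted p = 0.00253) was the largest of the 33. Its 4 probe sets above the dim limit gave -1.16 to -2.57. The other 5 transport genes did not pass, and Hepacam had the largest difference among them (-0.80).

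Both glutamate transporters were lower. Slc1a2 had 11.62, 11.63 and 11.22 with topotecan, against 12.51, 12.96 and 13.19 with vehicle, a difference of -1.40 (SE 0.20, adjusted p = 0.0149). Another Slc1a2 probe set above the dim limit gave -1.51 (adjusted p = 0.236 over all probe sets). Slc1a3 had 10.46, 10.97 and 10.85 with topotecan, against 12.04, 12.07 and 11.94 with vehicle, a difference of -1.26 (SE 0.15, adjusted p = 0.00887). Slc38a3 (-1.07), Bcan (-1.26) and S1pr1 (-0.92) were lower as well, all without overlap. Both tested junction genes passed here. Gja1 had 12.18, 12.38 and 12.30 with topotecan, against 13.30, 13.15 and 12.86 with vehicle, a difference of -0.81 (SE 0.14, adjusted p = 0.0244). Cldn10, a claudin, had 8.31, 8.63 and 8.07 with topotecan, against 9.74, 9.67 and 10.25 with vehicle, a difference of -1.55 (SE 0.21, adjusted p = 0.0119).

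None of the 6 metabolic genes passed, with differences of -1.23 to -0.17. Aldh1l1 had 10.17, 10.15 and 9.46 with topotecan and 10.55, 10.32 and 10.38 with vehicle (-0.49, SE 0.20, adjusted p = 0.222). Apoe had 13.03, 13.39 and 13.51 with topotecan and 14.23, 14.20 and 13.52 with vehicle (-0.68, SE 0.22, adjusted p = 0.142). The groups did not overlap in either gene. Mt1 had 13.11, 13.72 and 13.96 with topotecan and 14.36, 14.24 and 13.89 with vehicle, overlapped and did not pass (-0.57). Mt2 had 12.50, 13.25 and 13.34 with topotecan and 13.79, 13.78 and 13.60 with vehicle and did not pass either (-0.70, SE 0.22, adjusted p = 0.133).

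Of the other lists at 300 nM, 4 of 22 further astrocyte-enriched genes were lower and 0 higher, with Prex2 at -1.76. Of 21 gliogenesis genes 4 were lower and 0 higher, with Nfia at -1.72, and of 22 neuron markers 1 was lower, Syt1 (-1.52), and 1 higher. The astrocyte markers summed to 97975 to 119168 with topotecan and 165168 to 168185 with vehicle. Neuron markers summed to 79436 to 95297 with topotecan and 92866 to 117264 with vehicle, and fibroblast, meningeal and mural markers to 22100 to 40518 with topotecan and 39613 to 58711 with vehicle. Their part in the result was not tested. Without vehicle replicate 2 the count of lower markers was 3, and it was 6, 6 and 5 without topotecan replicate 1, 2 and 3.

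With ICRF-193 at 3 µM 23 of 33 markers were lower and 0 higher, where 10.3% of all genes were lower and 8.29% higher. The difference was below 0 in all 33, with a median of -0.40, and the median over all genes was 0.00. In 28 markers the treated arrays lay below the vehicle arrays, as 20.7% of all genes did, and in 0 above, as 18.5% did. With the replicate number as a block, 27 markers were lower and 0 higher, where 13.8% of all genes were lower and 12.7% higher in the same limma fit. Acsbg1, Clu, Pla2g7 and Slc38a3 passed in that fit (adjusted p = 0.00661, 0.0199, 0.00216 and 0.0494).

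Gfap had 9.66, 9.06 and 8.94 with ICRF-193, against 10.55, 10.09 and 9.78 with vehicle, a difference of -0.92 (SE 0.23, adjusted p = 0.0312). The other 2 Gfap probe sets gave -0.88 and -0.93. The call for Gfap was lost with no filter on dim genes (adjusted p = 0.0693) and without ICRF-193 replicate 2 or 3 or vehicle replicate 1 or 2 (adjusted p = 0.0744 to 0.111), and with the replicate number as a block its adjusted p was 0.000185. Aqp4 had 10.88, 10.42 and 10.44 with ICRF-193, against 11.53, 11.45 and 11.20 with vehicle, a difference of -0.82 (SE 0.13, adjusted p = 0.00684). These were the 2 largest changes among the 33 markers, with no overlap in either. Slc4a4 (-0.63), Ntsr2 (-0.63), Id3 (-0.62), Bcan (-0.59) and Slc25a18 (-0.55) were lower too, each with the groups apart. Of the transport genes only Kcnj10 did not pass (-0.10).

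Slc1a2 had 12.41, 12.35 and 12.26 with ICRF-193, against 12.84, 12.62 and 12.65 with vehicle, a difference of -0.37 (SE 0.07, adjusted p = 0.00972). Another Slc1a2 probe set above the dim limit gave 0.02 on the same arrays, so this change turns on the probe set. Slc1a3 had 11.60, 11.54 and 11.59 with ICRF-193, against 11.98, 12.10 and 11.94 with vehicle, a difference of -0.43 (SE 0.05, adjusted p = 0.00155). Both transporters separated between the groups. Slc38a3 (-0.12) passed with the block alone, and Glul (-0.03) did not pass with it or without it.

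Both junction genes, both metallothioneins and all 3 receptors were lower. Gja1 had 12.43, 12.24 and 12.35 with ICRF-193, against 13.02, 12.95 and 12.88 with vehicle (-0.61, SE 0.06, adjusted p = 0.000863). Mt1 had 12.96, 12.74 and 12.85 with ICRF-193, against 13.31, 13.18 and 13.40 with vehicle (-0.45, SE 0.07, adjusted p = 0.00645). Mt2 had 12.58, 12.32 and 12.39 with ICRF-193, against 13.02, 13.01 and 12.91 with vehicle (-0.55, SE 0.07, adjusted p = 0.00253). None of the 3 overlapped between the groups, and Cldn10 (-0.63) did not either. Apoe had 12.76, 12.54 and 12.65 with ICRF-193, against 13.12, 12.92 and 13.11 with vehicle (-0.40, SE 0.07, adjusted p = 0.0101). Aldh1l1 had 10.19, 9.93 and 9.79 with ICRF-193 and 10.22, 10.02 and 9.93 with vehicle, overlapped and did not pass (-0.09, SE 0.11, adjusted p = 0.602). Of the 6 metabolic genes Aldoc and Ppp1r3c were lower, of the identity genes Fabp7 was lower (-0.44), and Sox9 did not pass (-0.20).

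Of 22 further astrocyte-enriched genes 10 were lower and 2 higher with ICRF-193, with Slc39a12 at -0.88. Of 21 gliogenesis genes 10 were lower and 0 higher, among them the zinc finger factor Zbtb20 (-0.79) and Hes5 (-0.67). Neuron markers had 2 of 22 lower and 7 higher, and summed to 95600 to 99894 with ICRF-193 and 91503 to 96258 with vehicle. Astrocyte markers summed to 87643 to 96005 with ICRF-193 and 112542 to 121373 with vehicle. The part of neurons in these values was not tested.

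The effect of 300 nM topotecan was then tested against the effect of ICRF-193, each taken against its own vehicle. The topotecan effect was the more negative in 4 of 33 markers and the more positive in 0, where 2.41% and 1.19% of all genes were. At an unadjusted p of 0.05 limma had 11 and 0 markers, where 8.17% and 9.95% of all genes passed. The difference between the effects was -1.94 (SE 0.28, adjusted p = 0.00532) for Slc4a4, -1.03 (SE 0.23, adjusted p = 0.0338) for Slc1a2 and -0.83 (SE 0.16, adjusted p = 0.0192) for Slc1a3. For Slc38a3 it was -0.95 (SE 0.18, adjusted p = 0.0206). All 4 are transporter genes, and Slc4a4 (446 kb) and Slc1a2 (133 kb) are also the only markers longer than 100 kb. For Gfap (-1.42, SE 0.68, adjusted p = 0.299) and Aqp4 (-1.08, SE 0.43, adjusted p = 0.21) it did not pass, nor for Gja1 (-0.20), Mt1 (-0.12) or Mt2 (-0.14). Without any 1 of the ICRF-193 arrays 1 marker was called, and without vehicle 1, 2 or 3 of that set 1, 2 and 1 were.

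**Figure D2:**
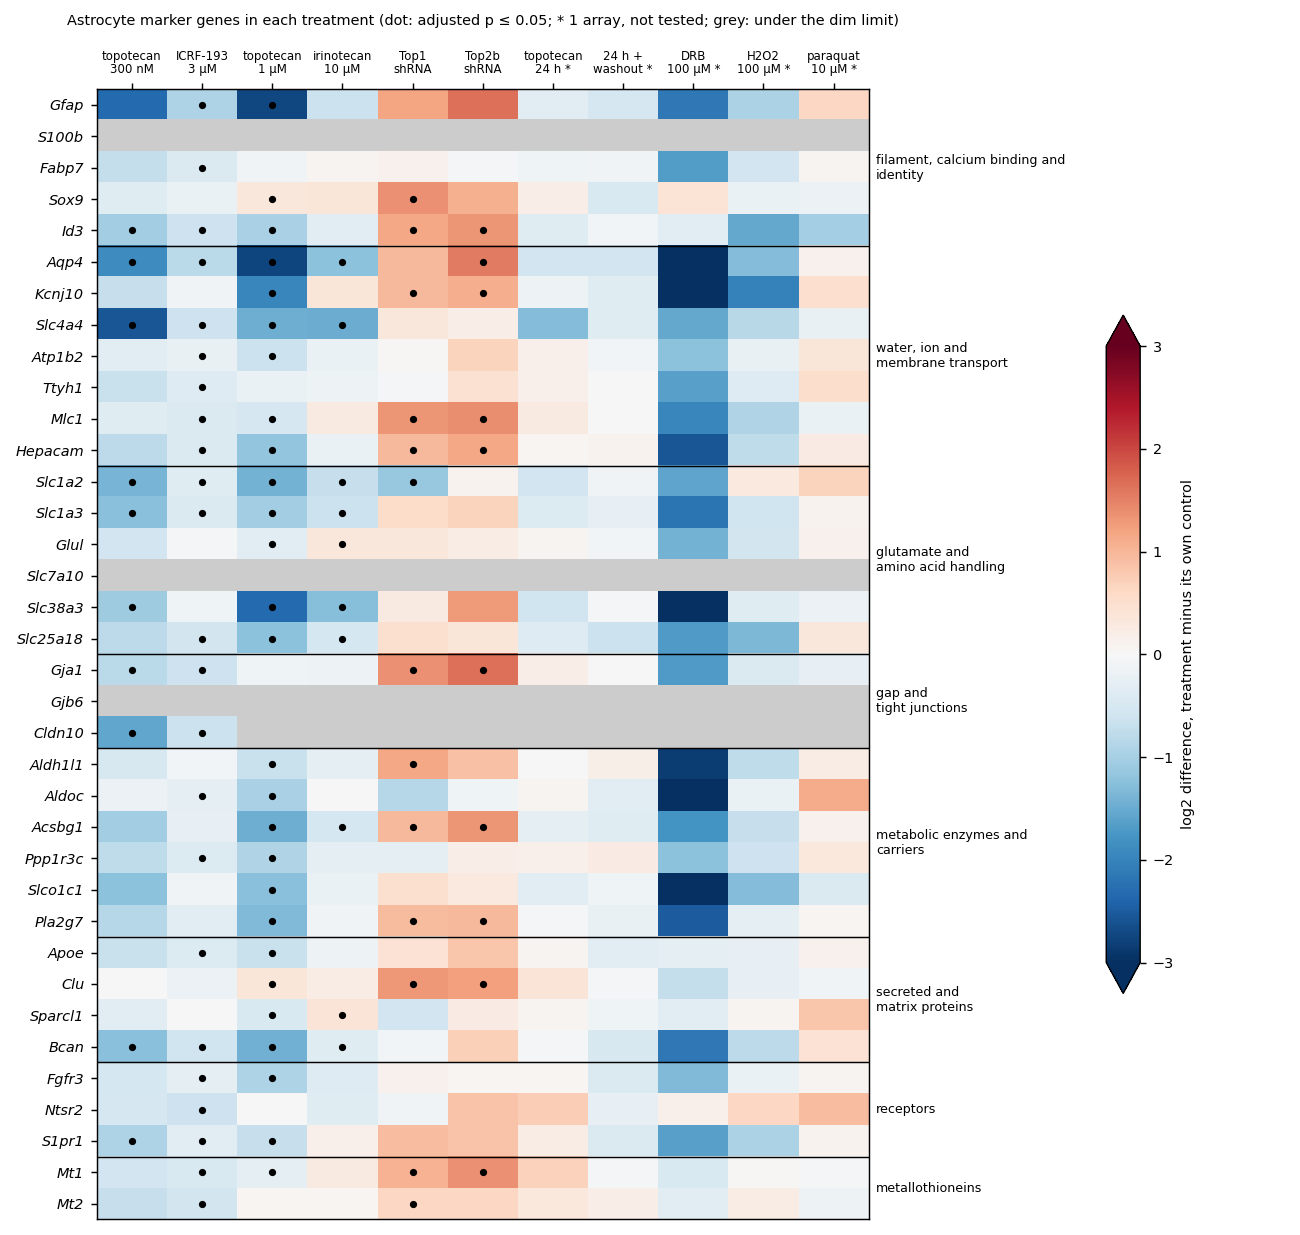
Log2 difference of the 36 astrocyte markers (rows, by role) in 11 treatments (columns), each against its own control; blue is lower and red higher in the treatment. A dot marks an adjusted p of 0.05 or less, grey marks genes under the dim limit, and an asterisk marks treatments with 1 array and no test. The columns for 300 nM topotecan, ICRF-193 and 1 µM topotecan hold 10, 23 and 25 lower markers, and the shRNA columns hold 12 and 10 higher ones.

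With irinotecan at 10 µM 8 of 32 markers were lower and 2 higher, beside 11.7% lower and 16.5% higher among all genes. The median difference was -0.19 over the markers and 0.07 over all genes. The 3 treated arrays lay below both vehicle arrays in 15 markers, as 20.8% of all genes did, and above both in 8, as 36.3% did. The lower markers were Aqp4 and Slc4a4, the glutamate genes Slc1a2, Slc1a3, Slc38a3 and Slc25a18, and Acsbg1 and Bcan.

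Aqp4 had 5.57, 5.73 and 5.63 with irinotecan, against 6.71 and 7.05 with vehicle, a difference of -1.24 (SE 0.11, adjusted p = 0.000425). Slc4a4 had 7.15, 7.17 and 7.15 with irinotecan, against 8.63 and 8.65 with vehicle, and its difference of -1.49 (SE 0.07, adjusted p = 2.66e-05) was the largest. Slc38a3 had 7.81, 7.59 and 7.58 with irinotecan, against 8.90 and 8.99 with vehicle, a difference of -1.28 (SE 0.10). The groups stood apart in all 3. Slc1a2 had 6.69, 6.58 and 6.53 with irinotecan, against 7.21 and 7.35 with vehicle (-0.68, SE 0.09, adjusted p = 0.00176). Slc1a3 had 8.18, 8.10 and 8.27 with irinotecan, against 8.72 and 8.95 with vehicle (-0.65, SE 0.10, adjusted p = 0.00375). Gfap had 5.73, 6.13 and 6.26 with irinotecan and 6.38 and 7.00 with vehicle, did not overlap and did not pass (-0.65, SE 0.21, adjusted p = 0.0589).

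The higher markers were Glul (0.33) and Sparcl1, with 11.16, 11.17 and 11.16 under irinotecan and 10.69 and 10.86 with vehicle (0.39, SE 0.08, adjusted p = 0.0129). Aldh1l1 had 6.32, 6.73 and 6.78 with irinotecan and 6.79 and 6.95 with vehicle (-0.26, SE 0.15, adjusted p = 0.221). Gja1 had 6.78, 6.73 and 7.11 with irinotecan and 6.90 and 7.15 with vehicle (-0.16, SE 0.14, adjusted p = 0.413). Neither passed, and Aldh1l1 lay below vehicle on every array and Gja1 overlapped. Apoe had 5.78, 6.01 and 6.04 with irinotecan and 6.13 and 6.07 with vehicle (-0.16, SE 0.10, adjusted p = 0.274). Mt1 had 7.96, 7.71 and 7.77 with irinotecan and 7.48 and 7.59 with vehicle (0.28, SE 0.10, adjusted p = 0.0687). Mt2 had 9.32, 9.14 and 9.14 with irinotecan and 9.11 and 9.19 with vehicle (0.05, SE 0.09, adjusted p = 0.672). None of these 3 passed, and Apoe lay below vehicle on every array, Mt1 lay above vehicle on every array and Mt2 overlapped. The astrocyte markers summed to 13818 to 14573 with irinotecan, within the 13515 to 14717 with vehicle. That linear sum weighs bright genes most, such as Fabp7 (log2 11.89 to 12.01 with irinotecan) and Sparcl1. Dim genes called lower, such as Aqp4 and Slc1a2, add little to it. Neuron markers had 6 of 22 lower and 4 higher and summed to 25221 to 25307 with irinotecan and 27483 to 28384 with vehicle, and their part in the result was not tested. Without vehicle replicate 2 there were 5 lower markers, without vehicle replicate 1 there was no higher one, and without irinotecan replicate 1, 2 or 3 there was 1 higher marker each.

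The 24 h topotecan array and the washout array were set against the same 2 vehicle arrays as irinotecan, and 1 array each allows no test. After 24 h of topotecan 2 of 32 markers were lower past 1.5-fold and 2 higher, beside 5.28% and 4.63% of all genes, so the shares were near those of all genes. Slc4a4 stood at 7.35 with topotecan, against 8.63 and 8.65 with vehicle (-1.29). Slc38a3 stood at 8.35 with topotecan, against 8.90 and 8.99 with vehicle (-0.59). Both lay under both vehicles, and Slc1a2 (-0.58), Aqp4 (-0.57) and Slc1a3 (-0.41) came next within 1.5-fold. Ntsr2 (0.73) and Mt1 (0.69) were the higher ones, followed by Clu (0.39), Mt2 (0.32) and Mlc1 (0.26). The array lay below both vehicles in 11 markers, as 30.6% of all genes did, and above both in 13, as 53.1% did. Without vehicle replicate 1 there were 5 lower markers and without replicate 2 there was 1.

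After washout 1 of 32 markers was lower past 1.5-fold and 0 higher, where 0.421% and 0.398% of all genes were. The lower one was Slc25a18, with 5.36 after washout, against 5.91 and 6.11 with vehicle (-0.65). Slc4a4 stood at 8.29 after washout, and the 24 h array without washout at 7.35, beside 8.63 and 8.65 with vehicle. Slc38a3 stood at 8.91 after washout, between its vehicles at 8.90 and 8.99. Aqp4 stood at 6.30 after washout and 6.31 after 24 h alone, under both vehicles at 6.71 and 7.05. Below Slc25a18 in size came Aqp4 (-0.58), Gfap (-0.50), Bcan (-0.48) and Sox9 (-0.45), and Ppp1r3c (0.26), Mt2 (0.20) and Aldh1l1 (0.17) were highest. The array lay below both vehicles in 22 markers, as 38.4% of all genes did, and above both in 4, as 32% did. Without vehicle replicate 1 there were 4 lower markers and without replicate 2 there was none.

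Of the other markers in these 2 arrays, Gfap had 6.38 after 24 h of topotecan and 6.19 after washout, against 6.38 and 7.00 with vehicle. Slc1a2 had 6.70 after 24 h of topotecan and 7.18 after washout, against 7.21 and 7.35 with vehicle. Slc1a3 had 8.42 after 24 h of topotecan and 8.60 after washout, against 8.72 and 8.95 with vehicle. Slc1a2 and Slc1a3 lay under both vehicles in the 24 h array, and Gfap was level with the lower vehicle. Aldh1l1 had 6.88 after 24 h of topotecan and 7.04 after washout, against 6.79 and 6.95 with vehicle. Gja1 had 7.22 after 24 h of topotecan and 7.03 after washout, against 6.90 and 7.15 with vehicle. Apoe had 6.17 after 24 h of topotecan and 5.76 after washout, against 6.13 and 6.07 with vehicle. These 3 stayed within 1.5-fold of vehicle in both arrays. Mt1 had 8.22 after 24 h of topotecan and 7.49 after washout, against 7.48 and 7.59 with vehicle. Mt2 had 9.47 after 24 h of topotecan and 9.35 after washout, against 9.11 and 9.19 with vehicle. Mt1 was past 1.5-fold after 24 h (0.69) and not after washout (-0.04).

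The camptothecin treatments differed in dose, time or array set, so their values are set side by side without a test. Slc4a4 gave -1.46 with 1 µM topotecan, -1.49 with irinotecan, -1.29 after 24 h of topotecan and -0.36 after washout. Aqp4 gave -2.74, -1.24, -0.57 and -0.58 in the same order. Gfap gave -2.72, -0.65, -0.31 and -0.50. Slc38a3 gave -2.33, -1.28, -0.59 and -0.04, with the washout array inside the range of its vehicles. The vehicles did not start level. Aqp4 had a vehicle median of 8.66 beside 1 µM topotecan, and 6.71 and 7.05 in the vehicles shared by the other treatments. Gfap had 8.30, against 6.38 and 7.00 in the shared vehicles. Aqp4 ended at 5.64 to 6.09 with 1 µM topotecan and at 5.57 to 5.73 with irinotecan, near the dim limit of 5.01. The sizes therefore do not rank the treatments.

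In the topotecan dose series the arrays came in 2 sets. Vehicle 1, vehicle 2 and the 1000 nM array stood apart from the other 7: the SD of log2 differences between arrays was 0.114 to 0.416 within that set, 0.137 to 0.253 within the other, and 0.511 to 0.59 between them. All 32 tested markers were higher in vehicle 1 and 2 than in vehicle 3, by 0.25 to 3.72 with a median of 2.09, where the median over all genes was 0.01. Gfap had 10.58, 10.60 and 7.70 in vehicle 1, 2 and 3, and Aqp4 had 10.06, 10.07 and 6.34. Neuron markers summed to 40493 to 50334 over the 3 vehicles and progenitor and proliferation markers to 1347 to 8063, and their part in this split was not tested. Over all 10 arrays the slope on dose rank was below 0 in all 32 markers, with a median of -0.19 per dose step. Vehicle 1 and 2 hold the lowest dose rank there, and the fit has no term for the set. The sign of the slope thus cannot be told apart from the set split. Over the other 7 arrays alone the slopes of Clu, Glul, Ntsr2, Ppp1r3c, Slc1a2 and Sparcl1 were above 0 and the rest below 0. Over the 10 arrays limma called 0 lower and 0 higher, where 1.95% and 1.51% of all genes were called. At an unadjusted p of 0.05, 8 markers were lower and 0 higher, where 7.95% of all genes were lower and 11.2% higher. The lowest adjusted p was 0.137, for Slc1a2. Without the 1000 nM array 3 markers were called lower.

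Arrays were therefore also compared within each set, a choice made after seeing the data. At 1000 nM against vehicle 1 and 2, 24 of 32 markers were lower past 1.5-fold and 0 higher. Of all genes 7.84% were lower and 3.71% higher. Aqp4 had 6.81 at 1000 nM, against 10.06 and 10.07 in those vehicles (-3.26). Slc38a3 had 8.92 at 1000 nM, against 11.40 and 11.42 (-2.49). Gfap had 8.17 at 1000 nM, against 10.58 and 10.60 (-2.42). Ntsr2 (-2.46) was the other marker below -2, and Glul (-0.17), Gja1 (-0.21) and Clu (-0.22) were among the least changed. Ntsr2 and Ppp1r3c (-1.81) count among the 24, but they passed the dim limit of 6.02 only through vehicle 1 and 2. Outside those vehicles Ntsr2 read 5.51 to 5.94 and Ppp1r3c 5.60 to 6.06. Their falls thus rest on the same arrays that let them pass. Ntsr2, with 5.55 at 1000 nM, against 8.03 and 8.00 here, differed by -0.01 with 1 µM on the later arrays. Its vehicle arrays there read 5.41 to 6.17, near the dim limit of 5.01 of that array type, so these differences start from unlike levels.

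The other doses were set against vehicle 3. At 3 nM no marker was lower past 1.5-fold, as 0.062% of all genes were, and Hepacam (0.70) was higher, as 0.283% were. At 30 and 150 nM none was lower or higher, where 0.186% and 0.832% of all genes were lower and 0.239% and 0.416% higher. The 2 arrays at 300 nM had 2 and 0 lower markers, where 1.38% and 1.33% of all genes were lower. None was higher in either, where 0.629% and 0.726% of all genes were. At 500 nM 6 were lower, where 2.21% were: Gfap (-1.25), Slc38a3 (-1.03), Slc4a4 (-0.80), Aldoc (-0.65), Aqp4 (-0.59) and Slc1a3 (-0.59). None was higher at that dose, where 0.965% of all genes were. The median difference over the markers was 0.31, 0.05 and -0.08 at 3, 30 and 150 nM. It was -0.15 and -0.05 in the arrays at 300 nM, and -0.29 at 500 nM. Over all genes these medians were 0.01 to 0.04. The markers thus lay above vehicle 3 in the median at 3 nM, about as far as they lay below it at 500 nM.

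Gfap stood at 7.70 in vehicle 3, at 8.22, 7.85 and 7.48 with 3, 30 and 150 nM, at 7.04 and 7.22 with 300 nM, and at 6.45 with 500 nM. Aqp4 stood at 6.34, 6.83, 6.43, 6.22, 5.99, 6.24 and 5.75 in the same order. Both were highest at 3 nM and lowest at 500 nM in this set. Over these 7 arrays limma called 5 markers lower with dose and 1 higher, where 5.34% and 4.64% of all genes were. The lower ones, with their slope per dose step, were Gfap (-0.28), Slc38a3 (-0.23), Slc4a4 (-0.18), Aldoc (-0.15) and Aldh1l1 (-0.13), and the higher one was Sparcl1 (0.11). Several markers were dim in this set even without drug. In vehicle 3 Ntsr2 (5.57) and Ppp1r3c (5.66) lay under the dim limit of 6.02. Bcan (6.04), Slc25a18 (6.22), S1pr1 (6.31) and Aqp4 lay close above it. How far this lowers the counts at 3 to 500 nM was not tested.

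Further markers are given in every array, with both 300 nM arrays between 150 and 500 nM. Slc1a2 stood at 10.04 in vehicle 3 and at 10.02, 10.06, 9.88, 10.06, 10.00 and 10.07 with 3 to 500 nM, and at 9.36 with 1000 nM, against 10.28 and 10.31 in vehicle 1 and 2. Slc1a3 stood at 9.18 in vehicle 3 and at 9.64, 9.33, 9.19, 8.89, 9.04 and 8.59 with 3 to 500 nM, and at 10.68 with 1000 nM, against 11.84 and 11.90 in vehicle 1 and 2. Aldh1l1 stood at 7.58 in vehicle 3 and at 7.85, 7.52, 7.22, 7.24, 7.24 and 7.11 with 3 to 500 nM, and at 9.01 with 1000 nM, against 9.97 and 10.05 in vehicle 1 and 2. All 3 were lower past 1.5-fold at 1000 nM, Slc1a3 by the most (-1.19). Gja1 stood at 9.10 in vehicle 3 and at 9.26, 9.16, 8.91, 8.83, 9.11 and 8.63 with 3 to 500 nM, and at 10.78 with 1000 nM, against 10.95 and 11.03 in vehicle 1 and 2. Apoe stood at 10.40 in vehicle 3 and at 10.76, 10.58, 10.44, 10.39, 10.39 and 10.13 with 3 to 500 nM, and at 11.60 with 1000 nM, against 12.50 and 12.58 in vehicle 1 and 2. Gja1 was within 1.5-fold at 1000 nM (-0.21), and Apoe differed by -0.94. Mt1 stood at 10.77 in vehicle 3 and at 10.83, 10.55, 10.70, 10.69, 10.67 and 10.72 with 3 to 500 nM, and at 11.30 with 1000 nM, against 12.12 and 11.92 in vehicle 1 and 2. Mt2 stood at 11.86 in vehicle 3 and at 12.06, 11.84, 11.83, 11.73, 11.81 and 11.77 with 3 to 500 nM, and at 12.49 with 1000 nM, against 12.76 and 12.72 in vehicle 1 and 2. Mt1 differed by -0.72 and Mt2 by -0.25 at 1000 nM.

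**Figure D3:**
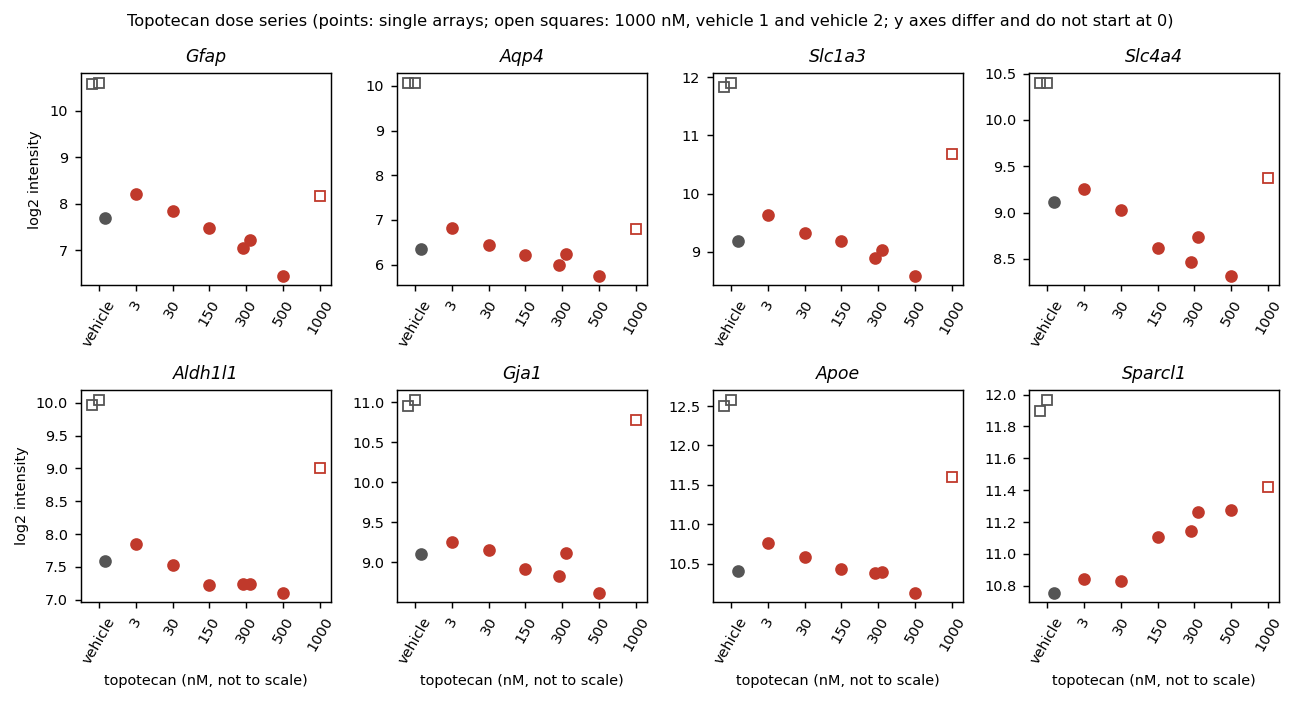
Log2 intensity of 8 astrocyte markers with vehicle and with 3 to 1000 nM topotecan; each point is 1 array, and open squares are vehicle 1, vehicle 2 and the 1000 nM array, which stand apart from the other 7. Among the filled points Gfap is lowest at 500 nM (6.45), and among the open ones the 1000 nM array (8.17) lies below its vehicles.

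The knockdown groups were checked on their targets first. Top1, which encodes topoisomerase I, had 7.62, 8.39 and 8.29 with Top1 shRNA and 8.98, 8.46 and 8.55 with control shRNA, a difference of -0.57 (SE 0.24, adjusted p = 0.106, limma). Top2b, which encodes topoisomerase II beta, had 8.62, 6.87 and 6.80 with Top2b shRNA and 9.30, 8.39 and 8.17 with control shRNA, a difference of -1.19 (SE 0.38, adjusted p = 0.0657). For its own target each knockdown array lay below the control array of its own number, and neither difference passed. In replicate 1, Top2b had 8.25 with Top1 shRNA and 8.62 with Top2b shRNA, against 9.30 with control shRNA. There Top2b was thus lower with the shRNA against Top1 than with its own. Over all arrays Top2b differed by -0.08 with Top1 shRNA, and Top1 by 0.11 with Top2b shRNA, and neither passed. Both knockdowns share the 3 control arrays, so their values stand side by side.

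Among the astrocyte markers, 12 of 32 were higher and 1 lower with Top1 shRNA than with control shRNA, where 13.6% of all genes were higher and 14.8% lower. With Top2b shRNA 10 were higher and 0 lower, where 7.7% of all genes were higher and 7.19% lower. At an unadjusted p of 0.05, limma had 14 higher and 2 lower with Top1 shRNA, where 19.2% of all genes were higher and 21.6% lower. With Top2b shRNA it had 16 higher and 0 lower, where 14.5% of all genes were higher and 16.4% lower. Kcnj10, Mlc1, Hepacam, Gja1, Acsbg1, Pla2g7, Clu, Id3 and Mt1 passed with each shRNA, Sox9, Aldh1l1 and Mt2 with Top1 shRNA, and Aqp4 with Top2b shRNA. The median difference was 0.52 with Top1 shRNA and 0.84 with Top2b shRNA, where the medians over all genes were -0.02 and -0.04. The Top1 shRNA arrays lay above all controls in 12 markers and below in 1, as 15.4% and 14.6% of all genes did. The Top2b shRNA arrays lay above in 12 and below in 0, as 12.7% and 15.4% did. These counts and shares take the array sets together.

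Gja1 had 9.03, 9.11 and 9.04 with Top1 shRNA and 10.57, 8.80 and 8.65 with Top2b shRNA, against 7.64, 7.75 and 7.66 with control shRNA. It was higher by 1.38 (SE 0.37, adjusted p = 0.0232) with Top1 shRNA and 1.66 (SE 0.37, adjusted p = 0.0199) with Top2b shRNA, with no overlap in either. Clu had 9.55, 9.25 and 9.27 with Top1 shRNA and 9.78, 9.06 and 9.02 with Top2b shRNA, against 7.67, 8.33 and 8.16 with control shRNA. Its differences were 1.30 and 1.23, also without overlap, and those of Mlc1 were 1.31 and 1.40 and of Hepacam 0.98 and 1.15. Id3 was higher by 1.17 and 1.33. Sox9 passed with Top1 shRNA (1.37, SE 0.35, adjusted p = 0.0193) and not with Top2b shRNA (1.07, SE 0.35, adjusted p = 0.0726).

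Mt1 had 9.07, 8.83 and 8.82 with Top1 shRNA and 10.04, 8.97 and 8.76 with Top2b shRNA, against 7.85, 8.08 and 7.69 with control shRNA. It was higher by 1.03 (SE 0.25, adjusted p = 0.016) and 1.38 (SE 0.25, adjusted p = 0.00956), with every knockdown array above every control array. Mt2 had 10.68, 10.04 and 9.83 with Top1 shRNA and 10.99, 9.80 and 9.75 with Top2b shRNA, against 9.84, 9.48 and 9.34 with control shRNA. The groups overlapped in both comparisons, and by limma the differences were 0.63 (adjusted p = 0.0336) with Top1 shRNA and 0.63 (adjusted p = 0.0527) with Top2b shRNA. The overlap is with control replicate 1, which lies in another array set than replicates 2 and 3. Within each set every knockdown array lay above its controls.

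Aqp4 had 8.91, 8.44 and 9.04 with Top1 shRNA and 10.99, 8.63 and 8.50 with Top2b shRNA, against 8.26, 7.64 and 7.55 with control shRNA. All knockdown arrays lay above the controls, and the difference was 0.98 (SE 0.41, adjusted p = 0.106) with Top1 shRNA and 1.55 (SE 0.41, adjusted p = 0.036) with Top2b shRNA. Kcnj10 was higher by 0.97 and 1.09. With the replicate number as a block, the adjusted p for Top2b shRNA was 0.0592 for Aqp4, 0.059 for Kcnj10 and 0.0547 for Pla2g7, which left 7 markers higher and 0 lower, where 5.58% of all genes were higher and 4.58% lower. Gfap had 8.96, 7.61 and 8.57 with Top1 shRNA and 10.65, 8.25 and 7.67 with Top2b shRNA, against 6.73, 7.59 and 7.28 with control shRNA. All knockdown arrays again lay above the controls, but the spread within groups was wide, and neither difference passed (1.18, SE 0.59, adjusted p = 0.167 with Top1 shRNA, and 1.66, SE 0.59, adjusted p = 0.0939 with Top2b shRNA).

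Of the metabolic genes Acsbg1 was higher by 0.97 and 1.32 and Pla2g7 by 0.96 and 0.98. Aldh1l1 had 8.89, 7.81 and 8.50 with Top1 shRNA and 8.57, 8.12 and 7.69 with Top2b shRNA, against 6.94, 7.40 and 7.41 with control shRNA, with no overlap, and passed with Top1 shRNA (1.15, SE 0.29, adjusted p = 0.0187) and not with Top2b shRNA (0.88, SE 0.29, adjusted p = 0.0757). Apoe had 6.79, 6.85 and 6.29 with Top1 shRNA and 7.80, 6.94 and 6.41 with Top2b shRNA, against 6.12, 6.33 and 6.20 with control shRNA, with differences of 0.43 and 0.83. Slc1a3 had 10.35, 9.48 and 9.59 with Top1 shRNA and 11.06, 9.41 and 9.33 with Top2b shRNA, against 9.15, 9.48 and 9.14 with control shRNA, with differences of 0.55 and 0.67. Neither gene passed with either shRNA, and Apoe with Top2b shRNA lay above all controls while the other comparisons overlapped. Slc1a2 had 6.31, 5.89 and 6.17 with Top1 shRNA and 8.05, 7.03 and 7.03 with Top2b shRNA, against 7.07, 7.36 and 7.38 with control shRNA. It was the one marker lower with Top1 shRNA (-1.15, SE 0.25, adjusted p = 0.0104), where the groups did not overlap, and with Top2b shRNA it overlapped the controls (0.10, SE 0.25, adjusted p = 0.812).

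Replicate 1, which lies in another array set, and replicates 2 and 3 were also read apart. Against the control array of its set, 30 of 32 markers were above 0 in replicate 1 of Top1 shRNA and 30 in replicate 1 of Top2b shRNA, with medians of 0.68 and 1.66. In replicates 2 and 3 there were 24 and 22, with medians of 0.46 and 0.39. The share of all genes above 0 is not given for these splits, so the counts have no baseline here. Each value of replicate 1 also rests on a single array against a single control array. Within replicates 2 and 3 alone 15 markers were higher and 5 lower with Top1 shRNA, where 20.1% of all genes were higher and 24.5% lower. With Top2b shRNA 9 markers were higher and 1 lower in those arrays, where 10.1% of all genes were higher and 12.5% lower. With Top1 shRNA the count of higher markers was 4 without Top1 shRNA replicate 3 and 5 without control replicate 3, and without control replicate 1 there were 4 lower markers. With Top2b shRNA it was 5 and 3 without Top2b shRNA replicate 1 and 2, and 4 without control replicate 3.

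Markers of other cells moved in the same arrays. Of 22 neuron markers 14 were lower with Top1 shRNA and 6 with Top2b shRNA, and none was higher, with Slc17a7, a vesicular glutamate transporter, at -3.03 with Top1 shRNA. They summed to 11888 to 18424 with Top1 shRNA and 15693 to 20270 with Top2b shRNA, against 26730 to 27395 with control shRNA. Of 16 fibroblast, meningeal and mural markers 12 and 9 were higher and none lower, with Pdgfrb, a growth factor receptor of mural cells, at 2.26 and 1.98. They summed to 16312 to 18221 with Top1 shRNA and 11021 to 16242 with Top2b shRNA, against 3194 to 6052 with control shRNA. The astrocyte markers summed to 18732 to 30065 and 19165 to 47510, against 16893 to 20537 with control shRNA. Of 26 further astrocyte-enriched genes 15 and 12 were higher and 1 and 0 lower, and of 17 reactive astrocyte genes 9 and 4 were higher and none lower. The part of these cells in the astrocyte values was not tested.

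Set against Top2b shRNA, Top1 shRNA gave 0 markers lower and 0 higher by limma, as 0% and 0% of all genes were. At an unadjusted p of 0.05, 4 of 32 were lower and 0 higher, where 6.49% of all genes were lower and 7.88% higher. The Top1 shRNA arrays lay below all Top2b shRNA arrays in 1 marker and above in 0, as 4.57% and 5.76% of all genes did. The lowest adjusted p was that of Slc1a2, whose Top1 shRNA arrays all lay below its Top2b shRNA arrays (-1.25, SE 0.25, adjusted p = 0.141). Within replicates 2 and 3 alone 2 markers were lower and 1 higher, where 7.75% of all genes were lower and 6.43% higher.

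**Figure D4:**
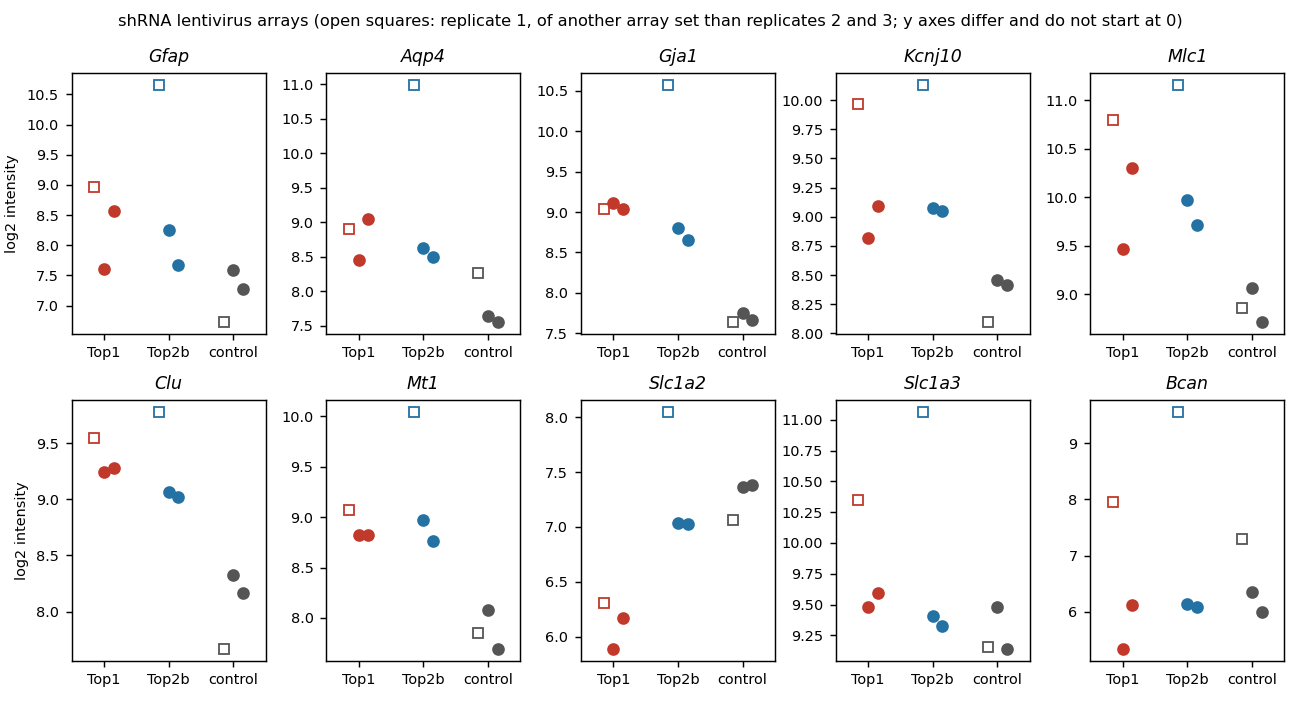
Log2 intensity of 10 astrocyte markers with Top1 shRNA, Top2b shRNA and control shRNA (3 arrays each); open squares are replicate 1, which belongs to another array set than replicates 2 and 3. Gja1, Clu and Mt1 lie above the controls in all knockdown arrays, and Slc1a2 lies below the controls with Top1 shRNA and overlaps them with Top2b shRNA.

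With DRB, read on 1 array against 1, 25 of 32 markers were lower past 1.5-fold and 0 higher, where 37% of all genes were lower and 12.2% higher. The median difference was -1.66 over the markers and -0.34 over all genes. Slco1c1 had 5.32 with DRB and 9.33 with vehicle (-4.01). Slc38a3 had 6.43 with DRB and 10.37 with vehicle (-3.94). Aqp4 had 5.03 with DRB and 8.44 with vehicle (-3.40). These were the 3 largest, and Kcnj10 (-3.34) and Aldoc (-3.20) followed. Gfap (-2.14), Slc1a3 (-2.20) and Gja1 (-1.70) were lower too. Sox9 (0.41) and Ntsr2 (0.16) were above 0, and Mt1 (-0.45), Mt2 (-0.34), Apoe (-0.30), Sparcl1 (-0.34) and Id3 (-0.35) stayed within 1.5-fold below it. In the same array 18 of 26 further astrocyte-enriched genes, 11 of 16 fibroblast, meningeal and mural markers and 8 of 22 neuron markers were lower past 1.5-fold, and their part in the result was not tested.

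Hydrogen peroxide and paraquat, which cause oxidative stress, share 2 vehicle arrays. With hydrogen peroxide 15 of 32 markers were lower past 1.5-fold and 1 higher, where 5% of all genes were lower and 7.93% higher. The median difference was -0.56, and 0.08 over all genes. Kcnj10 had 7.15 with hydrogen peroxide and 8.89 and 9.45 with vehicle (-2.02). Id3 had 6.98 with hydrogen peroxide and 9.02 and 8.03 with vehicle (-1.54). Slc25a18 (-1.34), Slco1c1 (-1.31) and Aqp4 (-1.30) were next, and Ntsr2 (0.62) was the higher one (0 were higher without vehicle 1 and 2 without vehicle 2). The array lay below both vehicles in 23 markers, as 19.9% of all genes did, and above both in 2, as 33.2% did. In the same array 13 of 16 progenitor and proliferation markers were lower past 1.5-fold, with Mki67 at -2.35, and so were 10 of 16 fibroblast, meningeal and mural markers. Their part in the result was not tested.

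With paraquat 1 marker was lower past 1.5-fold and 5 were higher, where 7.15% of all genes were lower and 13.7% higher, so the share of higher markers was near that of all genes. The median difference was 0.12 over the markers and 0.12 over all genes. Id3 stood at 7.50 with paraquat, under both vehicles (-1.03), and Aldoc (1.10), Ntsr2 (0.93), Sparcl1 (0.83), Slc1a2 (0.67) and Gfap (0.62) were higher. The array lay below both vehicles in 3 markers, as 22.3% of all genes did, and above both in 15, as 40.5% did. Neuron markers were higher past 1.5-fold in 12 of 22, and fibroblast, meningeal and mural markers lower in 9 of 16.

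The 2 oxidant vehicles differed from each other in several markers. Slc1a2 had 6.31 and 7.90 in them, Gfap 7.18 and 8.22, and Gja1 9.28 and 8.01. With paraquat Slc1a2 differed by -0.13 without vehicle 1 and by 1.46 without vehicle 2. The paraquat counts were 0 lower and 1 higher without vehicle 1, and 3 lower and 8 higher without vehicle 2. Over the 2 vehicles fibroblast, meningeal and mural markers summed to 9426 to 25731 and neuron markers to 19074 to 36841, beside 10222 and 30147 with hydrogen peroxide and 10035 and 36095 with paraquat. The part of these cells in the oxidant values was not tested.

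The remaining values of these arrays follow by gene. Gfap had 6.76 with hydrogen peroxide and 8.33 with paraquat, against 7.18 and 8.22 with vehicle, and 5.76 with DRB, against 7.90 with its vehicle. Slc1a2 had 7.39 with hydrogen peroxide and 7.77 with paraquat, against 6.31 and 7.90 with vehicle, and 6.52 with DRB, against 8.10 with its vehicle. Slc1a3 had 9.23 with hydrogen peroxide and 9.95 with paraquat, against 9.95 and 9.72 with vehicle, and 7.65 with DRB, against 9.85 with its vehicle. DRB was below its vehicle in all 3, and with hydrogen peroxide the differences were -0.94, 0.29 and -0.60. Aldh1l1 had 7.21 with hydrogen peroxide and 8.20 with paraquat, against 8.16 and 7.79 with vehicle, and 5.07 with DRB, against 7.91 with its vehicle. Gja1 had 8.21 with hydrogen peroxide and 8.39 with paraquat, against 9.28 and 8.01 with vehicle, and 6.40 with DRB, against 8.10 with its vehicle. Apoe had 6.55 with hydrogen peroxide and 6.91 with paraquat, against 6.85 and 6.72 with vehicle, and 6.24 with DRB, against 6.54 with its vehicle. Their differences with hydrogen peroxide were -0.77, -0.44 and -0.24. Mt1 had 8.83 with hydrogen peroxide and 8.77 with paraquat, against 8.99 and 8.60 with vehicle, and 8.09 with DRB, against 8.54 with its vehicle. Mt2 had 10.44 with hydrogen peroxide and 10.07 with paraquat, against 10.34 and 10.11 with vehicle, and 9.87 with DRB, against 10.21 with its vehicle. Both metallothioneins were within 1.5-fold of vehicle in all 3 treatments.

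Inhibition of topoisomerase I is known to lower long genes in neurons, so the markers were also placed by annotated gene length (RefSeq, GRCm38.p6). Slc4a4 at 446 kb and Slc1a2 at 133 kb are longer than 100 kb, and the other 34 are shorter. Both long markers were lower with 1 µM topotecan, 300 nM topotecan, ICRF-193 and irinotecan. Of the tested markers up to 100 kb, 23 of 30 were lower with 1 µM topotecan, where 13.2% of all genes of that length were. With 300 nM topotecan it was 8 of 31, where 0.346% were, with ICRF-193 21 of 31, where 7.88% were, and with irinotecan 6 of 30, where 5.2% were. Of all genes over 100 kb, 64.4% were lower with 1 µM topotecan and 18.5% with 300 nM. The split at 100 kb was added after seeing the data.

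Across the markers, log10 length and the log2 difference had a Pearson r of -0.41 with 1 µM topotecan (32 genes), -0.46 with 300 nM topotecan (33), 0.10 with ICRF-193 (33) and -0.47 with irinotecan (32). Without Slc4a4 and Slc1a2 these were -0.38, -0.24, 0.22 and -0.26. For the difference of the 300 nM topotecan and ICRF-193 effects r was -0.61 (33), and -0.43 without Slc4a4 and Slc1a2. The genes share the same arrays and are not independent, so the values are a description. Among short markers with a large change at 1 µM topotecan stand Gfap at 9.87 kb, Slc38a3 at 17.8 kb and Aqp4 at 21.6 kb, while Gja1 at 13.1 kb did not pass there.

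**Figure D5:**
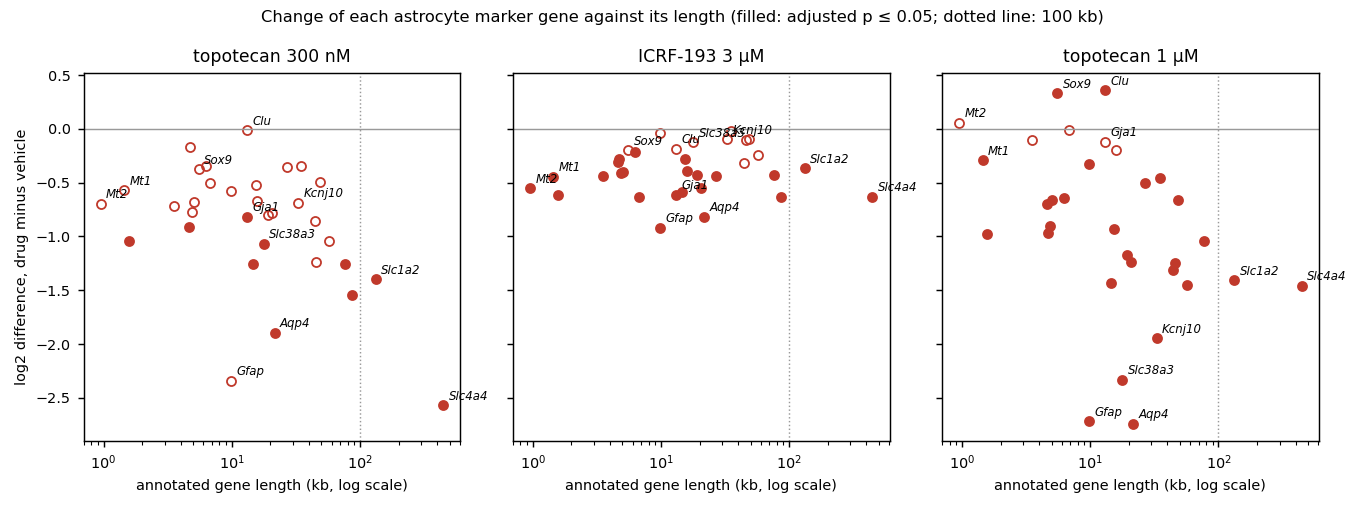
Log2 difference of each tested astrocyte marker against its annotated length in kb (log axis) with 300 nM topotecan, ICRF-193 and 1 µM topotecan; filled points have an adjusted p of 0.05 or less, and the dotted line is at 100 kb. Gfap, Aqp4 and Slc38a3 lie lowest with 1 µM topotecan, left of the line, and Slc4a4 lies farthest right in each panel.

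Across the drugs with separate vehicles, 7 of 32 markers were lower with 300 nM topotecan, ICRF-193 and 1 µM topotecan, where 1.96% of 10136 genes were: Aqp4, Bcan, Slc1a2, Slc1a3, Slc4a4, Id3 and S1pr1. The 5 named before Id3 were lower with irinotecan too, where 1.84% of genes were.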

How the data were processed

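The authors deposited linear intensities per probe set, summarised by RMA in Affymetrix Expression Console per the submitters' processing notes, with versions not given in the sources used here. From these, log2 intensities were computed, the brightest probe set naming 1 gene was kept, and genes whose mean over the array type fell below its 40th percentile were left out. Groups were compared with limma 3.58.1 (R 4.3.3; lmFit, eBayes, two-sided, Benjamini-Hochberg over all genes kept), checked on simulated data. The shRNA fits held an array set term, and the dose trend is a slope over dose rank. Comparisons with 1 treated array have no test, and 1.5-fold differences were counted. No column went unmapped to an array. Replicate numbers were taken to pair arrays where same-numbered arrays deviated together (r of 0.38, 0.23 and 0.38 for ICRF-193, 0.45, 0.39 and 0.35 for Top2b shRNA against control, and 0.44, 0.20 and 0.32 between the shRNAs). Only for ICRF-193 was the same number the best partner of every array. Replicate 2 of Top2b shRNA against control, and replicate 3 between the shRNAs, had a best partner of another number (r of 0.40 and 0.42). The markers and all other lists came from general knowledge and were chosen with earlier results of these data known. Every-array values are given for Gfap, Aqp4, Slc1a2, Slc1a3, Aldh1l1, Gja1, Apoe, Mt1 and Mt2 and for up to 6 further called markers per comparison without overlap. Of other lists up to 4 leading genes are named, and for single arrays the 5 largest differences each way. Promoters and gene lengths came from RefSeq (GRCm38.p6). Alternatives were the mean of probe sets, no dim filter, quantile normalization, a replicate block, a 2-fold limit and leaving out single arrays, and within-set dose comparisons, the 100 kb split and shRNA values by array set were added after seeing the data.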

Additional observations from a re-analysis of the deposited data

Results flagged for a closer look

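In the groups of 6 arrays, 64 sets of marker values were searched for 1 array far from the other 5, by a rule that chance meets in about 1 set in 20. It found 3, where chance would give about 3.2. Aldh1l1 stood at 6.39 in 1 µM topotecan replicate 6, with the next value at 6.74 and the highest at 6.95. Hepacam stood at 9.00 in vehicle replicate 4 of that experiment, with the next value at 8.69 and the lowest at 8.50. Slc1a2 stood at 7.08 in the same vehicle array, with the next value at 7.48 and the highest at 7.67. Aldh1l1 and Slc1a2 kept their calls in every fit that left out 1 array of this experiment.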

How the results depend on the processing

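The counts of lower markers with 1 µM topotecan (25 to 26) and ICRF-193 (17 to 25) kept within 1.5 times of the main count without any 1 array. The others moved more, and the cause was not tested where a setting does not show it. Refit counts, here and above, stand without the share of all genes in the same refit except where a share is printed. Whether a moved count is particular to the markers was not tested. The count of lower markers ranged 3 to 9 for 300 nM topotecan, 5 to 9 for irinotecan, 1 to 4 for Top1 shRNA, 0 to 1 for Top2b shRNA, 1 to 6 for the difference of the topotecan and ICRF-193 effects, and 0 to 3 for the dose trend without 1 array in turn. The count of higher markers ranged 0 to 2 for irinotecan, 2 to 2 for 1 µM topotecan, 4 to 11 for Top1 shRNA and 3 to 10 for Top2b shRNA, and was 0 throughout for the dose trend. For single arrays, leaving out 1 vehicle gave 1 to 5 lower markers after 24 h of topotecan, 0 to 4 after washout, 13 to 16 with hydrogen peroxide (0 to 2 higher), and 0 to 3 with paraquat (1 to 8 higher). Slc1a2 with paraquat turned to -0.13 without vehicle 1. The replicate block gave 0 lower markers for 300 nM topotecan and 0 for the difference of effects, and 1 higher marker each for 1 µM topotecan and irinotecan, where numbers do not pair the arrays (r of -0.01, -0.16 and -0.45 for 300 nM topotecan). For ICRF-193, Top2b shRNA and the 2 shRNAs against each other, where same-numbered arrays deviated together, it moved no count of calls by over 1.5 times. In the shRNA comparisons the same number was not always the best partner. For Top1 shRNA the block gave 10 higher, without Kcnj10 and Mt2. The mean of all probe sets gave 1 higher marker with irinotecan and 2 lower in the difference of effects. No filter on dim genes gave 1 higher with irinotecan and 2 lower after washout. Without the array set term there were 3 higher markers with each shRNA. Replicates 2 and 3 alone gave 5 lower with Top1 shRNA, 1 lower with Top2b shRNA, and 2 lower and 1 higher between the shRNAs. Quantile normalization gave 1 higher with DRB and 3 higher with paraquat. A 2-fold limit gave 1 lower and 0 higher after 24 h, 0 lower after washout, 5 lower and 0 higher with hydrogen peroxide, and 1 higher with paraquat. The dose trend without 1000 nM, vehicle 1 and vehicle 2 gave 5 lower and 1 higher, and without 1000 nM alone 3 lower. In all, 223 of these counts stayed within 1.5 times of the main value and 57 did not, and of values of single genes 1269 kept their direction and side of the threshold, 182 lost the call, 2 moved and 1 turned. Array number limits the precision, and markers under the dim limit have no value here.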

Other observations

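Microglia, oligodendrocyte, endothelial and progenitor genes were read in the same arrays at the same limits. With 1 µM topotecan the microglia markers had 1 lower and 1 higher of 10, the oligodendrocyte lineage markers 3 lower and 0 higher of 6, the endothelial markers 2 lower and 0 higher of 4, and the progenitor and proliferation markers 8 lower and 2 higher of 16. With 300 nM topotecan these lists had 0 lower and 0 higher of 8, 0 lower and 1 higher of 6, 0 lower and 0 higher of 1 and 0 lower and 0 higher of 10 in the same order, and the reactive astrocyte genes 0 lower and 0 higher of 19. With ICRF-193 they had 0 lower and 0 higher of 8, 1 lower and 2 higher of 6, 0 lower and 0 higher of 1 and 0 lower and 0 higher of 10, and the reactive astrocyte genes 0 lower and 3 higher of 19. With irinotecan they had 0 lower and 2 higher of 10, 1 lower and 0 higher of 6, 0 lower and 0 higher of 4 and 1 lower and 1 higher of 16, the reactive astrocyte genes 3 lower and 2 higher of 17, the further astrocyte-enriched genes 5 lower and 3 higher of 26, and the gliogenesis genes 4 lower and 7 higher of 22. With Top1 shRNA the progenitor and proliferation markers had 0 lower and 7 higher of 16 and the gliogenesis genes 2 lower and 9 higher of 22, and with Top2b shRNA 0 lower and 2 higher of 16 and 1 lower and 6 higher of 22.

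The markers spread more than other genes within some groups. The median range between the arrays of a group was 0.57 over the markers and 0.27 over all genes with 300 nM topotecan, and 0.51 and 0.35 with its vehicle. In the Top2b shRNA group it was 1.36 over the markers and 0.55 over all genes, with Bcan widest at 3.46. Replicate 1 of that group lies in another array set than replicates 2 and 3, and Bcan read 9.55 in it and 6.15 and 6.09 in them. In the vehicles of 1 µM topotecan it was 0.40 over the markers and 0.36 over all genes. Over the 34 later gene-level arrays, each less the mean of its own controls, the genes most like Gfap by Pearson r were Aqp4 (0.94), Sfxn5 (0.94), Fam107a (0.93), Glycam1 (0.93), Mgat5 (0.93). Those most like Aldh1l1 were Nwd1 (0.94), Arfgef2 (0.94), Lcat (0.94), Ckb (0.94), Sorl1 (0.93). These arrays share treatments and controls, so the values are a description.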
